A study of Mus musculus with 10 samples.

Results

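The core circadian clock genes were described here in the cortex of mice that lack *Crtc1*, the neuronal coactivator of the transcription factor CREB. The 10 members were chosen by name, with earlier results of these data known: *Npas2*, *Clock*, *Arntl*, *Per1*, *Per2*, *Per3*, *Cry1*, *Cry2*, *Nr1d1* and *Dbp*. Each was measured, by 23 probe sets in all, of the 45037 probe sets and 18193 named genes on the array. RNA came from whole cortex of 5 *Crtc1*-/- mice and of 5 WT littermates, one array per mouse. All 10 were C57BL/6N females aged 2 months, with *Crtc1* missing from every cell of the mutants, and they were housed alone on a light-dark cycle. The study asked which transcripts differ in this knockout, a model of depression-like behavior. The paper ran its behavioral tests in the dark phase of a reversed light cycle. The hour at which each cortex was taken is not given in the sources used here, so clock time was not part of any comparison.

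The mammalian clock is a transcriptional loop. CLOCK, or its paralog NPAS2 in the forebrain, pairs with BMAL1, the product of *Arntl*, and switches on genes that carry E-boxes, among them the period and cryptochrome genes. PER and CRY proteins return to the nucleus and block that pair, REV-ERBα, the product of *Nr1d1*, represses *Arntl*, and DBP carries the rhythm to output genes. Period genes also respond acutely to signals: CREB sites at *Per1* are known to bind CREB and its CRTC coactivators after stimulation, and the kinase SIK1 in turn holds CRTC proteins out of the nucleus.

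The sequences around the start sites of *Npas2*, *Per1* and *Cry2*, the members with an unadjusted p under 0.05, and of *Cry1* as the paralog of *Cry2*, are shown to place these control words. They are RefSeq windows on GRCm38.p6, 250 bases before to 50 bases from the annotated start on, read 5′ to 3′ along the gene. Capitals mark matches, on either strand, to the E-box CACGTG, the related CACGTT, the full CREB word TGACGTCA, its first part TGACG (which lies inside the full word), the DBP words TTATGTAA, TTACGTAA and TTATGCAA, and the REV-ERB and ROR word AGGTCA.
*Npas2*, chr1:39194022-39194321, + strand: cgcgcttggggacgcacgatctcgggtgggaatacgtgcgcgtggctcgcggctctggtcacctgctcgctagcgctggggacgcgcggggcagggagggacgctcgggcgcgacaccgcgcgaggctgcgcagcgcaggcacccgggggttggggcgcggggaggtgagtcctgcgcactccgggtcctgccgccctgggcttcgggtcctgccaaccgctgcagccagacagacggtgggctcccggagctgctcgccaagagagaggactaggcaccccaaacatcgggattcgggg
*Per1*, first start, chr11:69098699-69098998, + strand: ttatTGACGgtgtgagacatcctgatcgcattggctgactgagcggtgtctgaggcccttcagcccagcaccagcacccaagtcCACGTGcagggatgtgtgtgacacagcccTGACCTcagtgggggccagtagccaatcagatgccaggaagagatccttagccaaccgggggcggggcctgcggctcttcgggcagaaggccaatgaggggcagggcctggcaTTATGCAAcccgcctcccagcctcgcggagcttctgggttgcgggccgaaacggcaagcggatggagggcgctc
*Per1*, second start, chr11:69099902-69100201, + strand: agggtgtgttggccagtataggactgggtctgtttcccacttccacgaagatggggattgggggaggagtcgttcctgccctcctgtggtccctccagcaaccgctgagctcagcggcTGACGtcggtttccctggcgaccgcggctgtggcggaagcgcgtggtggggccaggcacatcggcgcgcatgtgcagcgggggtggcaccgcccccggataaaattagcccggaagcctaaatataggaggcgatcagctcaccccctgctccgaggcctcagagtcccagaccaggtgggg
*Cry1*, chr10:85185005-85185304, - strand: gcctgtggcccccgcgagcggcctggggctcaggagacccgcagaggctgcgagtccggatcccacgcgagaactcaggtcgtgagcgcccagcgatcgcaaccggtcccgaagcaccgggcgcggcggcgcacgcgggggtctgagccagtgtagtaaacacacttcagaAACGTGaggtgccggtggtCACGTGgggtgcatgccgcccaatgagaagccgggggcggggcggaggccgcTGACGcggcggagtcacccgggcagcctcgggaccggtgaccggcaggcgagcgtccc
*Cry2*, chr2:92434020-92434319, - strand: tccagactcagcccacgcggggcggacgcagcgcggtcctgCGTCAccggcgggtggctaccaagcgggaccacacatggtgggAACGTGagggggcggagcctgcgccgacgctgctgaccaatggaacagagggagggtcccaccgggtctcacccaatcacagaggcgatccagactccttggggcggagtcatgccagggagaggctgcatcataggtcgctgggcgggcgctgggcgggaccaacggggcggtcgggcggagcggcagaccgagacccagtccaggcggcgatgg

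The *Npas2* window held none of the 8 words. The first *Per1* window held CACGTG 166 bases before the start and TGACG 246 bases before it. The second *Per1* window held TGACG 132 bases before its start. In *Cry1*, CACGTG lay 60 bases and TGACG 8 bases before the start. *Cry2* held the related E-box word on the other strand 166 bases before its start, and TGACG on the other strand 209 bases before. Of the members, 9 were in the promoter table, all but *Per2*, with 13 windows, and 8 of these windows held a match; at least one of the 8 words was found in 42.4% of all 32851 windows. By word, CACGTG was in 7.15% of all windows, CACGTT in 4.68%, TGACG in 20.8%, TGACGTCA in 1.79%, TTATGTAA in 0.938%, TTATGCAA in 0.743%, TTACGTAA in 0.119% and AGGTCA in 16.3%. These matches describe letters only.

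The deposited values are log2 intensities, already normalized. Array medians lay within 0.0322 of each other, and any 2 arrays correlated at 0.994 to 0.998 across probe sets. The *Crtc1* probe set that reads most strongly (1434476_at) averaged 6.38 ± 0.27 in *Crtc1*-/- mice, against 9.69 ± 0.15 in WT mice (SD, n = 5 each), a log2 fold change of −3.32 ± 0.12 (SE; limma, adjusted p = 2.13e-07), and the groups did not overlap. The labels name neither a litter nor an array batch. The paper states that its experiments were run on successive batches of mice and then pooled. Which of these mice shared a batch is not given. The p-values rest on the spread between mice within a genotype. Handling shared within a genotype cannot be told apart from the genotype itself. Markers of cortical neurons such as *Camk2a* and *Slc17a7* were bright, at 13.11 and 10.18 in *Crtc1*-/- mice and 13.14 and 10.31 in WT mice.

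*Npas2* was the one core clock gene called lower in *Crtc1*-/- cortex, with an adjusted p close to the threshold. It stood at 0.734 of the WT level, while its paralog *Clock* and its partner *Arntl* had log2 fold changes of −0.05 and −0.04 by their brightest probe sets. Of the 10 members, 1 passed the test as lower and 0 as higher (limma, adjusted over all probe sets); across all genes, by the brightest probe set of each, 0.313% were called lower and 0.517% in either direction. Over all 23 member probe sets, 1 was called lower, against 0.187% of all probe sets. The fold changes of 9 of the 10 members were below 0, with a median of −0.12 against −0.0030 over all genes, of which 51.6% were below 0. Because the members were chosen with earlier results known, these shares and those further on are a description with no test.

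*Npas2* (1421037_at) gave log2 intensities of 7.48, 7.48, 7.41, 7.78 and 7.59 in the *Crtc1*-/- mice, against 7.96, 7.90, 8.19, 7.90 and 8.01 in the WT mice. Every mutant lay below every WT mouse. Group means were 7.55 ± 0.15 in *Crtc1*-/- mice, against 7.99 ± 0.12 in WT mice (SD, n = 5 each). In the fit its log2 fold change was −0.45 ± 0.08 (SE; 95% interval −0.62 to −0.27), with an adjusted p of 0.0442 in limma. An exact permutation test over the mice, two-sided, gave p = 0.00794, the smallest that 5 against 5 allows. The adjusted p sat close to the threshold: it stayed past it in 1 of the 10 fits that left out a mouse, the fit without *Crtc1*-/- replicate 4 (adjusted p = 0.0198), and reached up to 0.131 in the others, while the log2 fold change stayed between −0.50 and −0.40.

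A dimmer *Npas2* probe set built on the same transcript accession (1421036_at) read 5.58, 5.76, 5.69, 5.91 and 5.73 in *Crtc1*-/- mice, against 6.00, 5.89, 6.30, 5.80 and 5.95 in WT mice. Here the groups overlapped, through *Crtc1*-/- replicate 4 and the lowest WT mice. Its log2 fold change of −0.25 did not pass (limma, adjusted p = 0.529). WT replicate 3 was the highest and *Crtc1*-/- replicate 4 the highest of its genotype by both probe sets.

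**Figure D1:**
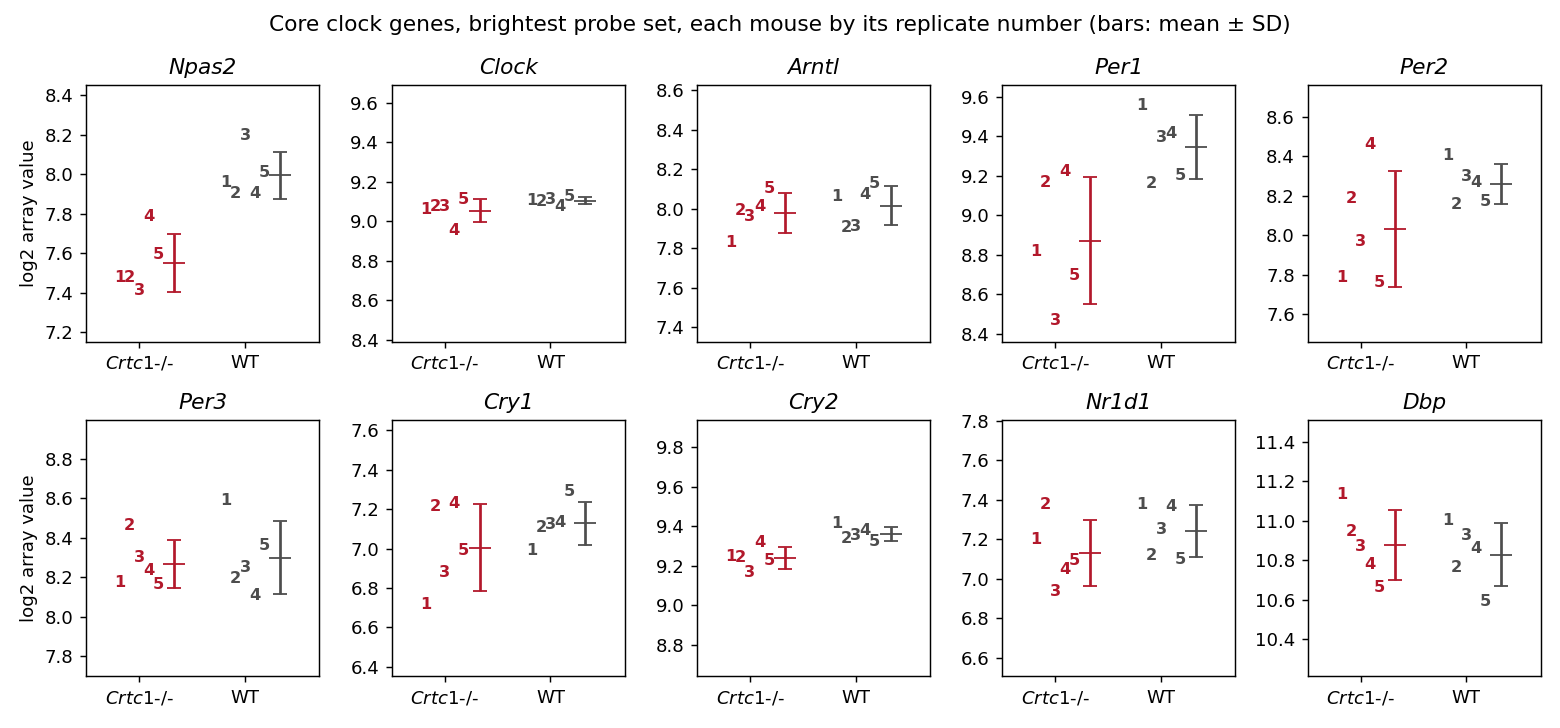
Log2 intensity (vertical axis) of the brightest probe set of each of the 10 clock genes, 1 panel per gene, for the 5 *Crtc1*-/- mice on the left and the 5 WT mice on the right of each panel; each number is 1 mouse, by its replicate number, and the bars give the mean ± SD. Only *Npas2* and *Cry2* have all *Crtc1*-/- mice below all WT mice.

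Marker lists for cell types and regions were read in the same mice. The mean of none passed after adjustment over the 10 lists, but 5 against 5 allows no exact p below 0.00794. A single list at that floor adjusts to 0.0794 and could not pass on its own. The adjusted values therefore cannot show that cell makeup was alike. The mean over 7 cortical neuron markers was 11.01 to 11.08 in *Crtc1*-/- mice and 11.09 to 11.13 in WT mice (exact permutation p = 0.00794, adjusted 0.0794), with 0 of the 7 called. The mean over 11 oligodendrocyte markers was 10.11 to 10.41 in *Crtc1*-/- mice and 9.84 to 10.15 in WT mice (exact permutation p = 0.0317, adjusted 0.106); 11 of 11 had fold changes above 0, and 0 of 11 were called. The mean over 7 hippocampal markers was 5.52 to 5.68 in *Crtc1*-/- mice and 5.66 to 5.85 in WT mice (exact permutation p = 0.0159, adjusted 0.0794). Of these 7, 5 had fold changes below 0 and 2 above. Called lower were 2 of the 7, against 0.313% of all genes: *Fibcd1* at −0.41 (limma, adjusted p = 0.0225) and *Fam163b* at −0.28 (adjusted p = 0.0476), genes rich in hippocampal pyramidal cells. With the hippocampal mean as a covariate the *Npas2* log2 fold change was −0.39 ± 0.14 (SE). With the oligodendrocyte mean it was −0.47 ± 0.11, and with no covariate −0.45 ± 0.08. Neither covariate fit passed the threshold (limma, adjusted p = 0.9995 and 0.423), and in both the SE was wider. No array can tell fewer cells of a type from less RNA per cell, and the part of cell makeup in the *Npas2* result was not tested.

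*Clock*, which encodes the other DNA-binding partner of BMAL1, was almost flat. The 5 *Crtc1*-/- mice read 9.06, 9.07, 9.07, 8.95 and 9.11 (1435775_at), against 9.11, 9.10, 9.11, 9.08 and 9.13 in WT mice. Of the mutants, 4 lay below every WT mouse, mostly by a very small margin (exact permutation p = 0.0476). Its log2 fold change was −0.05 ± 0.04 (SE; 95% interval −0.14 to 0.04; limma, adjusted p = 0.893), so a change as large as that of *Npas2* lies outside the interval. The other 3 *Clock* probe sets gave −0.12 to −0.05, none passing.

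*Arntl*, the BMAL1 gene, read 7.83, 7.99, 7.96, 8.01 and 8.11 in *Crtc1*-/- mice, against 8.06, 7.91, 7.91, 8.08 and 8.13 in WT mice (1425099_a_at). The 2 ranges lay on top of each other. This gave a log2 fold change of −0.04 ± 0.06 (SE; 95% interval −0.18 to 0.10; limma, adjusted p = 0.955), and its dimmer probe set pointed the other way at 0.10 (adjusted p = 0.926).

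Set against its partners mouse by mouse, *Npas2* gave the following differences. The log2 value of *Npas2* minus that of *Clock* averaged −1.50 ± 0.19 in *Crtc1*-/- mice, against −1.11 ± 0.11 in WT mice (SD, n = 5 each). *Npas2* minus *Arntl* averaged −0.43 ± 0.14 in *Crtc1*-/- mice, against −0.02 ± 0.18 in WT mice. These pairs were chosen after the values were seen and after *Npas2* had passed, so they are a description with no test. The intensity of one probe set cannot be read against that of another except as such a difference between genotypes.

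Among the period and cryptochrome genes, which encode the repressors of the loop, none passed over all probe sets, and all 5 had fold changes below 0. *Per1* and *Cry2* came nearest. *Per1*, the period gene with the fastest response to stimuli, read 8.81, 9.17, 8.46, 9.22 and 8.69 in *Crtc1*-/- mice (1449851_at), against 9.55, 9.16, 9.40, 9.41 and 9.20 in WT mice. The mutant replicates 1, 3 and 5 were below all WT mice, while replicates 2 and 4 lay at the low end of the WT range. The means were 8.87 ± 0.32 in *Crtc1*-/- mice, against 9.34 ± 0.16 in WT mice (SD, n = 5 each). The log2 fold change of −0.47 ± 0.14 (SE; 95% interval −0.77 to −0.17; 0.72 of the WT level) was as large as that of *Npas2* but did not pass (limma, adjusted p = 0.335; unadjusted p = 0.00509; exact permutation p = 0.0397).

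*Per2* overlapped between the groups. It read 7.79, 8.18, 7.97, 8.46 and 7.76 in *Crtc1*-/- mice, against 8.40, 8.15, 8.30, 8.27 and 8.17 in WT mice (1417602_at). *Crtc1*-/- replicate 4 was the highest of all 10 mice, and replicates 1, 3 and 5 were the lowest of all. The log2 fold change was −0.23 ± 0.12 (SE; 95% interval −0.49 to 0.04; limma, adjusted p = 0.769), and the other 2 *Per2* probe sets gave −0.17 and −0.08, neither passing.

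*Per3*, the member of the family that the loop can run without, read 8.17, 8.46, 8.30, 8.23 and 8.16 in *Crtc1*-/- mice, against 8.59, 8.19, 8.25, 8.11 and 8.36 in WT mice (1421087_at). Its log2 fold change was −0.03 ± 0.09 (SE; 95% interval −0.23 to 0.16; limma, adjusted p = 0.974). Its 5 dimmer probe sets ranged from −0.09 to 0.13, none passing. The log2 difference of *Per1* minus *Per2*, taken mouse by mouse, averaged 0.84 ± 0.22 in *Crtc1*-/- mice, against 1.09 ± 0.07 in WT mice, and that of *Per1* minus *Per3* averaged 0.61 ± 0.30 in *Crtc1*-/- mice, against 1.05 ± 0.18 in WT mice (SD, n = 5 each). These pairs, too, were picked after the values were seen and are given with no test.

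*Cry2*, one of the cryptochromes that block CLOCK and BMAL1, read 9.25, 9.24, 9.16, 9.32 and 9.22 in *Crtc1*-/- mice, against 9.41, 9.34, 9.35, 9.38 and 9.32 in WT mice (1426383_at). Every mutant lay below every WT mouse, by a small margin. With *Npas2*, it was 1 of 2 members whose groups stood apart with the mutants lower; over all genes 2.04% did so. The means were 9.24 ± 0.05 in *Crtc1*-/- mice, against 9.36 ± 0.04 in WT mice (SD, n = 5 each). The log2 fold change of −0.12 ± 0.04 (SE; 95% interval −0.22 to −0.03; 0.919 of the WT level) did not pass over all probe sets (limma, adjusted p = 0.537; unadjusted p = 0.0176; exact permutation p = 0.00794). *Npas2*, *Per1* and *Cry2* were the 3 members with an unadjusted p under 0.05, all lower, against 4.84% of all genes lower at that level.

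*Cry1* gave nearly the same fold as *Cry2* with a far wider spread. It read 6.71, 7.21, 6.88, 7.23 and 6.99 in *Crtc1*-/- mice, against 6.99, 7.11, 7.12, 7.13 and 7.29 in WT mice (1433733_a_at). The log2 fold change was −0.12 ± 0.10 (SE; 95% interval −0.34 to 0.09; limma, adjusted p = 0.882), and the fold changes of *Cry1* and *Cry2* differed by −0.0018. The single probe set for *Cry1* is of a kind that the maker marks as reading several transcripts of one gene.

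*Nr1d1*, whose product REV-ERBα represses *Arntl*, read 7.20, 7.37, 6.94, 7.05 and 7.09 in *Crtc1*-/- mice, against 7.37, 7.12, 7.25, 7.36 and 7.10 in WT mice. The groups overlapped, and the log2 fold change was −0.11 ± 0.09 (SE; limma, adjusted p = 0.877).

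*Dbp*, a PAR bZIP factor driven by CLOCK and BMAL1 and the member with the brightest probe set (1438211_s_at), was the one member above 0. It read 11.13, 10.95, 10.87, 10.78 and 10.66 in *Crtc1*-/- mice, against 11.00, 10.76, 10.93, 10.86 and 10.59 in WT mice. Both genotypes spanned nearly the same range, with a log2 fold change of 0.05 ± 0.10 (SE; 95% interval −0.16 to 0.26; limma, adjusted p = 0.961), and its other probe set gave 0.04 (adjusted p = 0.971).

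**Figure D2:**
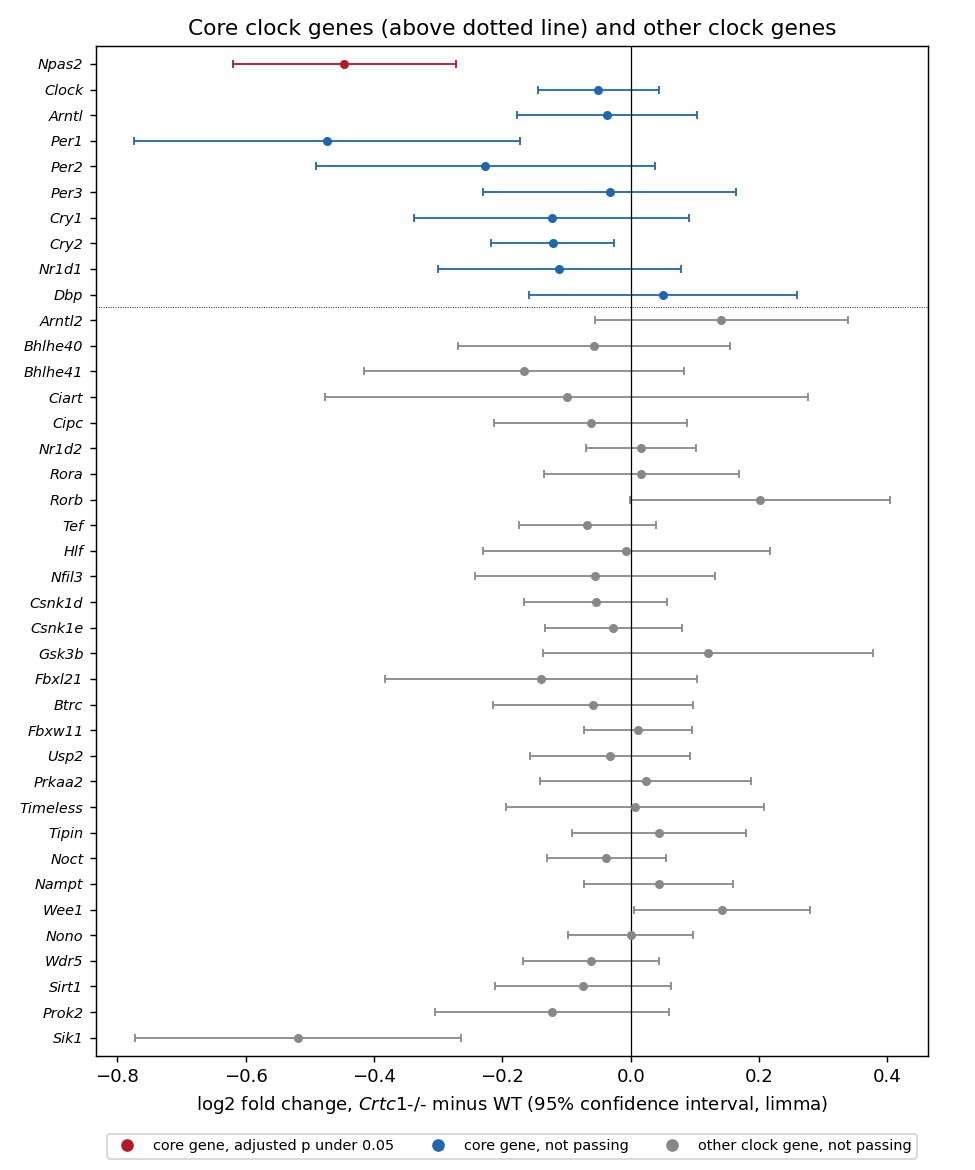
Log2 fold change, *Crtc1*-/- minus WT (horizontal axis), with 95% intervals from the limma fit, for the 10 members and the other measured clock genes (vertical axis), by the brightest probe set of each. *Npas2* is the one gene past the threshold on the adjusted p, and *Per1* and *Sik1* reach as far with wider intervals.

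The rest of the clock network gave no call. Of 32 further clock genes listed, 29 had a probe set of their own, and 0 passed in either direction (limma); at an unadjusted p under 0.05, 1 was lower and 1 higher, against 4.84% lower and 3.99% higher over all genes, so the count was near the background. Their fold changes were below 0 in 18 and above 0 in 11, with a median of −0.03. *Sik1*, the kinase that restrains CRTC proteins and is itself a CREB target, was the one that stood apart. It was dim, at 4.15 to 4.71 in *Crtc1*-/- mice and 4.79 to 5.22 in WT mice, with no overlap. Its log2 fold change of −0.52 missed the threshold (limma, adjusted p = 0.143; exact permutation p = 0.00794). *Wee1*, a cell cycle kinase gene under clock control, was at 0.14 (limma, adjusted p = 0.670), and the output peptide gene *Prok2* at −0.12 (adjusted p = 0.848).

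By role, 5 further activators and bHLH or related repressors gave 0 calls: *Arntl2*, the second BMAL gene, lay at 0.14, *Bhlhe41*, which encodes the E-box repressor DEC2, at −0.17, *Cipc* at −0.06 and *Ciart* at −0.10. The 3 measured nuclear receptor genes, all of which act on the same response element as REV-ERBα, had fold changes of 0.02 for *Nr1d2*, 0.02 for *Rora* and 0.20 for *Rorb* (limma, adjusted p = 0.701 for the last). The paralogs of DBP, *Tef* and *Hlf*, and their opponent *Nfil3* lay between −0.07 and −0.0068. The 8 kinase and ubiquitin pathway genes that act on the stability of clock proteins ranged from −0.14 for *Fbxl21* to 0.12 for *Gsk3b*, with *Csnk1d*, the casein kinase gene whose product marks PER proteins for decay, at −0.05. None of these groups had a member past the threshold.

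The members differed widely in how much they varied between mice of one genotype. The SD within genotypes, pooled over both, was widest for *Per1* at 0.254, *Per2* at 0.220, *Cry1* at 0.174 and *Dbp* at 0.168. It was narrowest for *Clock* at 0.0429 and *Cry2* at 0.0465. Set beside genes of like level (1819 or 1820 in each of 10 equal bands of brightness), *Per1* varied more than 98.6% of them, *Per2* more than 97.1%, *Dbp* more than 97.1% and *Cry1* more than 90.7%. *Cry2* exceeded 17.6% and *Clock* 12.9% of theirs. *Npas2* lay between, with an SD of 0.134, above 83.2% of genes of its level. Of the 10 members, 8 were above the median of their band.

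The wide members were mostly wide in the mutants. *Per1* had an SD of 0.32 in *Crtc1*-/- mice, against 0.16 in WT mice, *Per2* of 0.29 in *Crtc1*-/- mice and 0.10 in WT mice, and *Cry1* of 0.22 in *Crtc1*-/- mice and 0.11 in WT mice (n = 5 each). *Per3* ran the other way, at 0.12 in *Crtc1*-/- mice and 0.19 in WT mice. In 8 of the 10 members the SD was larger in *Crtc1*-/- mice, as in 45.5% of all genes. No test of the spreads was made, and 5 mice give each SD little precision.

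**Figure D3:**
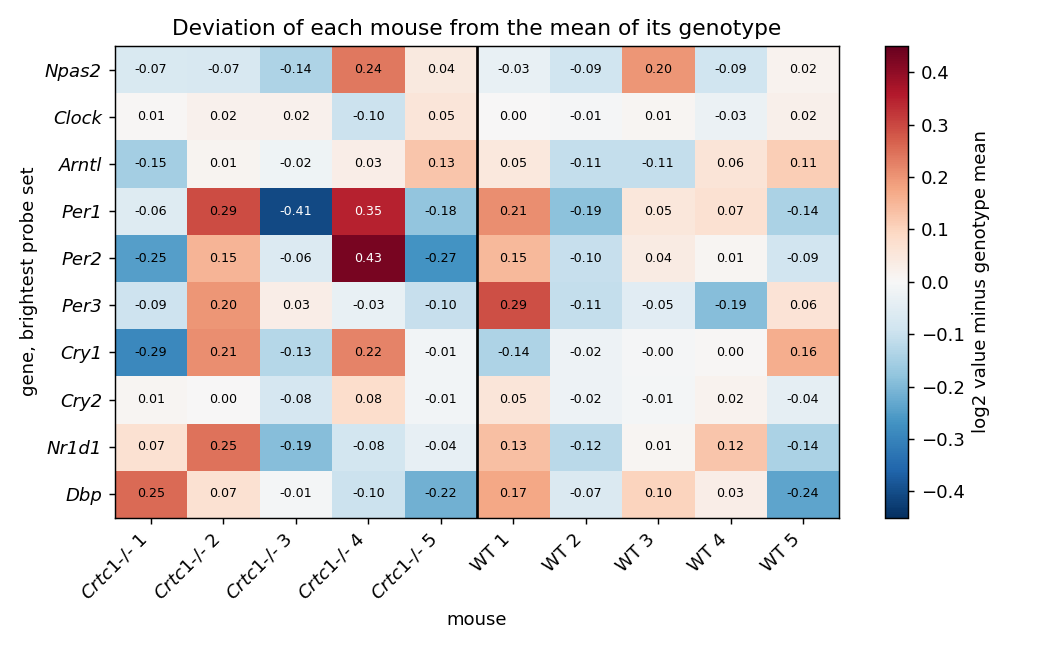
Deviation of each mouse from its genotype's mean, in log2 units (color scale), for the 10 members (rows), with the 5 *Crtc1*-/- mice left of the 5 WT mice (columns). *Crtc1*-/- replicate 4 is high in *Per1*, *Per2*, *Cry1* and *Npas2*, and the *Clock* and *Cry2* rows are nearly even.

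Single mice carried that spread, in different genes. *Crtc1*-/- replicate 4 exceeded its genotype mean by 0.43 in *Per2*, 0.35 in *Per1*, 0.24 in *Npas2* and 0.22 in *Cry1*. *Crtc1*-/- replicate 3 was lowest in *Per1*, at −0.41. *Crtc1*-/- replicate 1 was high in *Dbp*, at 0.25, and low in *Cry1*, at −0.29, in *Per2*, at −0.25, and in *Arntl*, at −0.15. *Crtc1*-/- replicate 5 was low in both *Per2*, at −0.27, and *Dbp*, at −0.22. Among WT mice, replicate 1 was high in *Per3*, at 0.29, *Per1*, at 0.21, and *Dbp*, at 0.17, and replicate 5 was low in *Dbp*, at −0.24. WT replicate 2 lay below its genotype mean in all 10 members, with deviations of −0.0056 in *Clock* to −0.19 in *Per1*, and no other mouse was on one side of its mean throughout.

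Whether members moved together between mice was asked on these deviations, with the genotype means removed. Whether the 10 arrays were processed together is not given, and mice of one genotype share the mean that was removed. Of the 45 pairs, 33 had a positive and 12 a negative Pearson r, and 0 passed after adjustment over the pairs (exact permutation within genotypes; 2 had an unadjusted p of r under 0.05). *Per1* and *Cry2* came closest, with r = 0.878 (exact permutation p = 0.00132, adjusted 0.0594) and Spearman's rho = 0.867 (exact permutation p = 0.00382, adjusted 0.172). Their r was 0.706 without the 2 mice farthest from the median of *Per1*. *Per1* and *Per2* had r = 0.778 (exact permutation p = 0.0441, adjusted 0.492) and rho = 0.806 (exact permutation p = 0.0273), with r = 0.859 without the 2 farthest mice. *Arntl* and *Dbp*, whose mRNAs are known to peak at opposite times of day, had r = −0.646 (exact permutation p = 0.0617). *Clock* and *Per2* had r = −0.763, which was 0.026 without the 2 farthest mice and so rested on those mice.

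**Figure D4:**
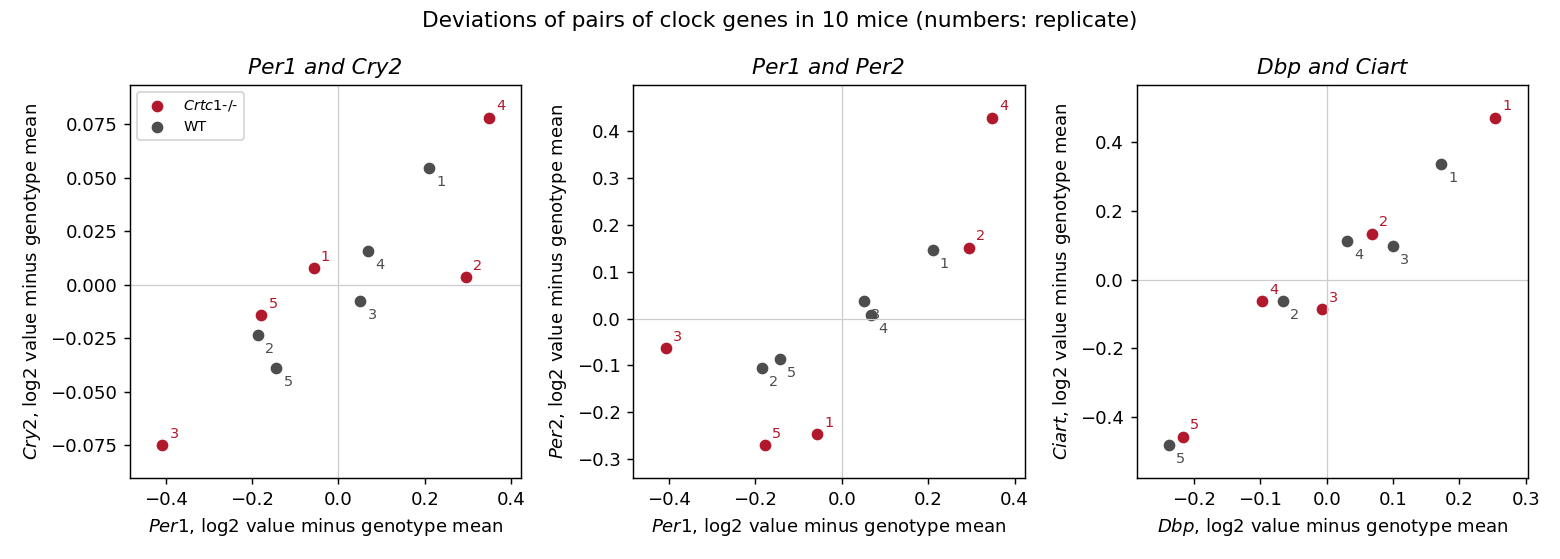
Deviations from the genotype mean in log2 units for 3 pairs of genes (*Per1* and *Cry2*, *Per1* and *Per2*, *Dbp* and *Ciart*), 1 point per mouse, *Crtc1*-/- and WT marked apart, with replicate numbers. *Ciart* follows *Dbp* closely in both genotypes (r = 0.976), and *Cry2* follows *Per1* over a much narrower range (r = 0.878).

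Outside the members, *Ciart*, which encodes a repressor of CLOCK and BMAL1 also known as CHRONO, had nearly the same order of mice as *Dbp*. It read 7.86, 7.52, 7.30, 7.33 and 6.93 in *Crtc1*-/- mice, against 7.82, 7.42, 7.58, 7.60 and 7.01 in WT mice (1435188_at). In both genotypes replicate 1 was the highest and replicate 5 the lowest, in both genes. Over the 10 mice the deviations of *Ciart* and *Dbp* had r = 0.976 (exact permutation p = 0.000278, adjusted 0.0106 over the 38 other clock genes set against *Dbp*) and rho = 0.915 (exact permutation p = 0.00146, adjusted 0.0554). That adjustment covers relations with *Dbp* alone and not the choice of *Dbp* among the members. The r was 0.950 without the 2 farthest mice and 0.964 to 0.988 with any one mouse left out; the adjusted p was past the threshold in 4 of those 10 cases, without *Crtc1*-/- replicate 3 or 4 or WT replicate 3 or 4, and ranged from 0.0264 to 0.106. The genotypes differed in neither gene beyond the spread: *Ciart* averaged 7.39 ± 0.34 in *Crtc1*-/- mice, against 7.49 ± 0.30 in WT mice (SD, n = 5 each; limma, adjusted p = 0.955). The next strongest were *Arntl2* at r = −0.729, *Wee1* at −0.681, *Usp2* at 0.676, *Arntl* at −0.646 and *Bhlhe41* at 0.614, none past the threshold after adjustment.

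Among 11646 unlisted genes above the median level, those whose deviations were most like *Dbp* over the 10 mice were *Snapin* (r = 0.976), *Klhl40* (0.960), *Tspan4* (0.947), *Ccdc115* (0.932) and *Idh3g* (0.923). The most opposite were *Acot8* (−0.943), *Cdadc1* (−0.939), *Kitl* (−0.936), *Slc25a14* (−0.936) and *Sorcs3* (−0.933). These are the extremes of a search and a description only. *Ciart*, at 0.976, thus stood level with the best of that search.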

How the data were processed

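Cortex RNA from 10 mice was amplified from 300 ng with a 3′ in vitro transcription kit and read on Affymetrix mouse expression arrays, whose probes lie near the 3′ end of transcripts. The authors deposited log2 values, already normalized; the method is not given in the sources used here, and compression of differences by it was not tested. Control probe sets were left out. Probe sets were named from GEO's platform annotation, those with several genes left unnamed, and each gene was read by its brightest single-gene probe set, others being given beside it. Genotypes were compared with limma 3.58.1 in R 4.3.3 (lmFit, eBayes, no covariate), tested on simulated data, with Benjamini-Hochberg adjustment over all 45037 probe sets and a threshold of 0.05. Single values were tested by exact permutation over mice (252 arrangements), and correlations by all 14400 arrangements within genotypes, two-sided, in Python 3.11.15 with numpy 2.4.6. Named genes are all members, those passing and the genes most like *Dbp*. Also named were up to 3 of each further clock list and up to 2 of each signal list, by the smallest p. *Usp2*, the markers and the further activity-induced genes were named after their values were seen. The members and lists were chosen with earlier results of these data known. Alternatives covered moderation, array weights, probe set choice, marker covariates, a replicate block and each mouse left out. Arrays give no count depth; the number of mice limits precision.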

Additional observations from a re-analysis of the deposited data

Results flagged for a closer look

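Of 148 sets of 5 values looked at, 5 held a mouse standing apart from the rest of its genotype, where chance gives about 1 in 20. None of them is the brightest probe set of a member. A dimmer *Per3* probe set (1458176_at) had 1 WT mouse at 6.99 against a WT median of 6.54. *Cipc* (1424915_s_at) had 1 WT mouse at 10.40 against a WT median of 10.19, *Fbxl21* (1457232_at) had 1 at 4.55 against 3.95, and *Gsk3b* (1437001_at) had 1 at 10.31 against 10.96. The mean over the endothelial markers was 7.99 in 1 *Crtc1*-/- mouse, against a median of 7.87 in that genotype.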

How the results depend on the processing

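The *Npas2* log2 fold change lay between −0.47 and −0.35 over 13 other settings and passed in 6 of them. It did not pass with array weights (−0.41, limma adjusted p = 0.0525), without moderation (adjusted p = 0.157), by the mean of all its probe sets (−0.35, adjusted p = 0.0870), with the hippocampal, oligodendrocyte or both marker means as covariates (the last, at −0.41, added after the data were seen), or with the replicate block. In those 7 settings the members called lower numbered 0, and they numbered 0 to 1 with a mouse left out; none was called higher in any setting run. Over all genes, the replicate numbers shared by the genotypes did not pair the mice (correlations of −0.262 to 0.0596 between same-numbered mice, 1 of 5 best with its own number). In *Dbp* and *Ciart*, though, replicate 1 was highest and replicate 5 lowest in both genotypes. The same held in *Snapin*, *Klhl40* and *Tspan4*, unlisted genes picked for their likeness to *Dbp*, but not in *Ccdc115* or *Idh3g*. The order was thus not confined to clock genes. The SE of the *Dbp* log2 fold change was 0.0585 with the replicate block, against 0.0954 without it. Whether the numbers mark something shared by these mice was not tested. With the replicate block the *Npas2* adjusted p was 0.279 (limma). Over all probe sets, 84 were lower and 52 higher; with the replicate block 28 and 12, without moderation 50 and 25, with the hippocampal mean 8 and 5, with the oligodendrocyte mean 14 and 7, with both 5 and 3, with trended and robust moderation 154 and 85, and with a mouse left out 45 to 77 and 24 to 40. None of the other 9 members passed in any setting run. With the hippocampal mean *Per1* was at −0.31 and *Per2* at −0.015, with both means *Per1* was at −0.30 and *Per2* at −0.070, and without *Crtc1*-/- replicate 1 *Cry1* was at −0.051. Signs turned for *Arntl*, *Cry1*, *Dbp* and *Per3*. *Arntl* was at 0.10 without probe sets marked as shared between transcripts, 0.029 by the mean of its probe sets and −0.069 to 0.00057 with a mouse left out. *Cry1* was at 0.011 with the hippocampal mean and had no value without shared probe sets. *Dbp* was at −0.033 with the hippocampal mean, −0.015 with both means and −0.013 to 0.10 with a mouse left out, and *Per3* at −0.082 to 0.039 with a mouse left out. The member pairs passing numbered 2 with the genotype means kept in and 0 to 1 with a mouse left out: *Per1* with *Cry2* without *Crtc1*-/- replicate 2 (r = 0.973, exact permutation, adjusted p = 0.0469) and *Per1* with *Nr1d1* without *Crtc1*-/- replicate 4 (r = 0.968, exact permutation, adjusted p = 0.0313). The causes were not tested. Dim probe sets limit *Sik1*, *Bhlhe41*, *Fbxl21*, *Prok2*, the *Clock* probe set 1439314_at and the lesser *Per3* probe sets. For *Prok2* only 11.8% of probe sets were dimmer.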

Other observations

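Gene lists for signals that reach the period genes were read on the same arrays. Of 15 activity-induced genes, 1 was called lower in *Crtc1*-/- mice and 0 higher (limma): *Nr4a1*, an immediate early nuclear receptor gene and CREB target, at −0.99 (adjusted p = 0.0195). At an unadjusted p under 0.05, 5 were lower and 5 higher, so the list split by direction. The 5 higher were *Egr2* at 0.81, *Npas4* at 0.51, *Arc* at 0.45, *Egr1* at 0.25 and *Egr3* at 0.15. The 5 lower were *Nr4a1*, *Dusp1*, *Fos* at −0.83, *Junb* at −0.38 and *Fosb* at −0.34. Over all genes 0.313% were called lower, and at the unadjusted p 4.84% were lower and 3.99% higher. *Dusp1*, a phosphatase gene induced by the same pathways, was at −0.41 (adjusted p = 0.0831).

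Of 15 glucocorticoid-induced genes, 1 was called lower and 0 higher, against 0.313% called lower over all genes. It was *Arrdc2*, an arrestin domain gene, at −0.56 (limma, adjusted p = 0.00915). At an unadjusted p under 0.05, 2 were lower and 1 higher, against 4.84% lower and 3.99% higher over all genes. *Cdkn1a*, which encodes the cell cycle inhibitor p21, was at 0.37 (limma, adjusted p = 0.192), with every mutant above every WT mouse. Of 9 measured temperature-responsive genes, 0 passed in either direction (limma; 1 lower and 0 higher at an unadjusted p under 0.05), with the heat shock cochaperone gene *Dnajb1* at −0.17 (adjusted p = 0.655) and *Cirbp*, a cold-induced RNA-binding protein gene, at −0.23 (adjusted p = 0.781). Whether these values bear on those of the clock genes was not tested.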
